A study of Mus musculus with 8 samples.

Results

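The cathepsins are the main proteases of the lysosome, and 10 of their genes were followed here through the bone marrow macrophages and plasma cells of a mouse myeloma study: Ctsa, Ctsb, Ctsc, Ctsd, Ctse, Ctsh, Ctsk, Ctsl, Ctss and Ctsz. The genes were chosen by name, as a list of symbols found in both deposited count tables, and they are 10 of the 47643 gene identifiers of the macrophage table. All 10 had counts in every one of the 6 macrophage libraries and passed the filter on low counts, as did 15522 genes in all.

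Cathepsins are made as inactive precursors, tagged with mannose 6-phosphate and carried to acidic compartments, where the precursor is trimmed to the active enzyme. The family joins different chemistries. Cathepsins B, C, H, K, L, S and Z are cysteine proteases, D and E are aspartic proteases, and A is a serine carboxypeptidase. Macrophages degrade engulfed cells and protein with them, and cathepsin S also trims the invariant chain of MHC class II. In bone, cathepsin K is known as the collagenase of osteoclasts, cells that share their origin with macrophages.

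The study injected Vk*MYC myeloma cells, a transplantable mouse plasma cell tumour carrying green fluorescent protein (GFP), into the tibia, in B6 mice. Bone marrow macrophages were gated on high F4/80 with low CD11b, and those of tumour-bearing mice (tumour-associated macrophages, TAM) were divided by GFP. The groups were GFP-positive TAM in contact with myeloma (TAM-IC, n = 2), GFP-negative TAM without such contact (TAM-NIC, n = 2), macrophages from tumour-free, naive mice (n = 2) and plasma cells (n = 2). All mice were wild type, no treatment was given, and the labels give neither age nor the number of animals behind a library. They also do not say which plasma cell library held myeloma and which held polyclonal plasma cells, so each is given by its replicate number and the pair enters no test. GFP separates the 2 TAM groups by the sort itself, so contact with tumour cells is read here only through that gate. The labels number the TAM libraries of each group mouse 1 and mouse 2 and do not say whether the naive or the plasma cell libraries came from separate animals, so a p-value here reflects only how far these libraries spread, which for the naive ones may be technical.

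Macrophage libraries held 28887725 to 46873056 counts. Values are CPM (counts scaled to the library total), given for replicates 1 and 2 in this order, and means ± SD are over the 2 libraries of a group. All 12 macrophage markers listed had counts in every macrophage library, and Adgre1, which encodes F4/80, stood at 519 and 549.8 CPM in TAM-IC, 1223 and 599.8 CPM in TAM-NIC and 1134 and 587 CPM in naive macrophages. Other marrow cells were also represented. The 9 neutrophil markers summed to 50262 and 28156 CPM in TAM-IC, 9137 and 17729 CPM in TAM-NIC and 47634 and 74209.7 CPM in naive macrophages. The 7 monocyte markers summed to 6591 and 5997 CPM, 1924 and 3839 CPM, and 3690 and 6185 CPM in the same order. Of these 7, 3 lay higher and 0 lower without overlap in TAM-IC than in TAM-NIC (24.4% and 22.3% of all genes). Against naive macrophages 4 lay higher and 0 lower (23% and 36.7%). Ccr2, 1 of the 7, had 925 and 618 CPM in TAM-IC, 191 and 52.4 CPM in TAM-NIC and 79.7 and 110 CPM in naive macrophages. Lists for erythroid, dendritic, B, megakaryocytic and T or NK cells each summed to at most 517 CPM. The 8 plasma cell markers summed to 321 and 411 CPM in TAM-IC, 1286 and 28251 CPM in TAM-NIC and 1777 and 2280 CPM in naive macrophages. They were thus lowest in TAM-IC, the group sorted as in contact with myeloma, and lower there than in tumour-free mice. The libraries of TAM-NIC stood apart from each other. Their log2 CPM correlated across genes at 0.879, against 0.967 within TAM-IC and 0.970 within naive macrophages, and immunoglobulin genes took 0.398% of the counts of replicate 1 and 9.13% of those of replicate 2 (at most 0.632% in the other macrophage libraries). TAM-IC replicate 2 had 0 counts of Xist and 3725 of the Y-linked Ddx3y, whereas the other 5 libraries had 777 to 2521 counts of Xist and at most 11 of Ddx3y. The TAM libraries that the labels both number mouse 2 therefore differed in sex-linked transcripts.

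Positions are those of whole genes, introns and untranslated regions included, in GENCODE M21 on build GRCm38. Ctsa (164832873 to 164841032, plus strand) and Ctsz (174427493 to 174439039, minus) lie on chromosome 2, Ctsk (95499256 to 95509362, plus) and Ctss (95526786 to 95556403, plus) on chromosome 3, and Ctsc (88278085 to 88310888, plus) and Ctsd (142375911 to 142388038, minus) on chromosome 7. Ctse lies on chromosome 1 (131638306 to 131675505, plus), Ctsh on chromosome 9 (90054152 to 90076089, plus), Ctsl on chromosome 13 (64359337 to 64370890, minus) and Ctsb on chromosome 14 (63122462 to 63145923, plus). Ctsk and Ctss are near neighbours on the same strand.

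Cathepsin transcripts were abundant in all macrophage libraries. The 10 genes together summed to 14054 and 13861 CPM in TAM-IC, 39817 and 20064 CPM in TAM-NIC and 29354 and 16612 CPM in naive macrophages. Both libraries of TAM-IC lay below the 4 other macrophage libraries. These sums were 1.41% and 1.39% of all counts in TAM-IC, 3.98% and 2.01% in TAM-NIC and 2.94% and 1.66% in naive macrophages. Replicate 1 was the higher library in each group, by little in TAM-IC and widely in the other groups. In these bulk libraries fewer cells of a type and less RNA per cell cannot be told apart.

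**Figure D1:**
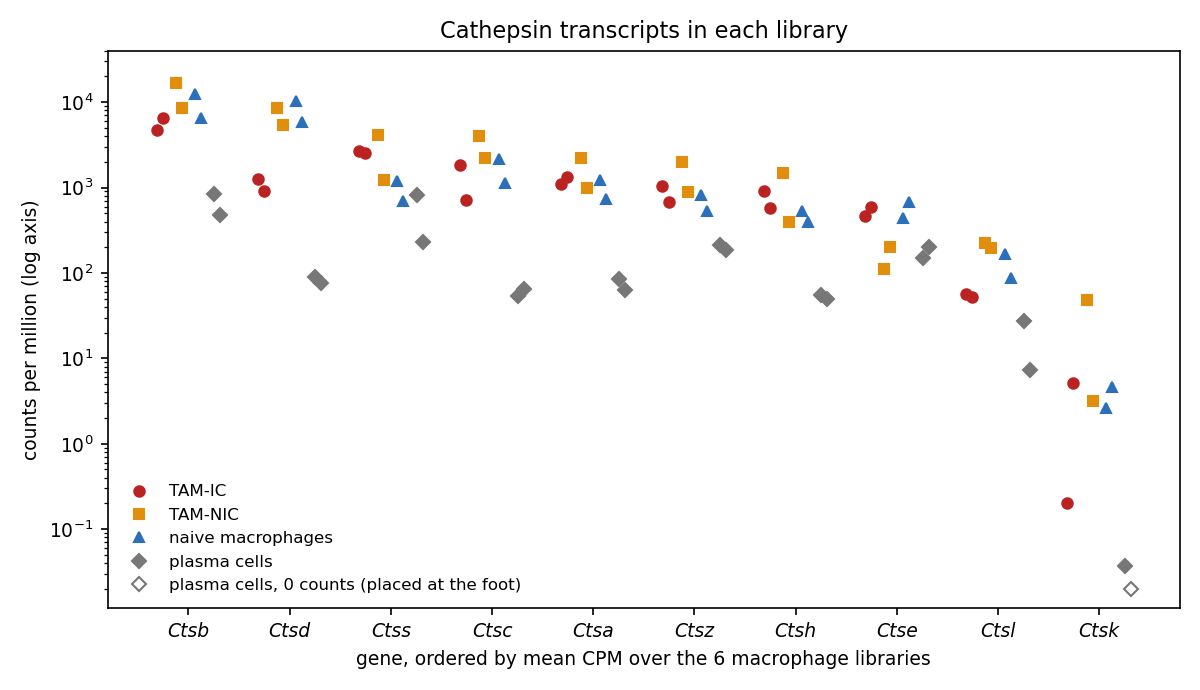
CPM of the 10 cathepsins (logarithmic axis) in each of the 8 libraries, 1 symbol per library, with genes ordered by their mean over the 6 macrophage libraries. Ctsd and Ctsl were lower in both libraries of TAM-IC than in the other macrophages, Ctse was lower in TAM-NIC and Ctsk varied most among libraries.

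The family spanned a wide range of levels. By mean CPM over the 6 macrophage libraries the order was Ctsb, Ctsd, Ctss, Ctsc, Ctsa, Ctsz, Ctsh, Ctse, Ctsl and Ctsk. To compare genes with each other, levels were divided by the length of annotated exon, joined over all transcripts of the gene. On that scale of CPM per kilobase Ctsd came first with 2291, before Ctsb with 1534 and Ctss with 1522, which lay side by side. Next were Ctsz with 688, Ctsc with 348 and Ctsa with 270.5, and then Ctsh with 158, Ctse with 131, Ctsl with 20.1 and Ctsk with 7.01. On this scale the leading gene differed between groups, whereas by CPM Ctsb led in every library. The change of leader therefore depends on the lengths used (6051 bases for Ctsb, 2351 for Ctsd and 1358 for Ctss). In TAM-IC Ctss led with a mean of 1916 CPM per kilobase, ahead of Ctsb (921), Ctsz (594) and Ctsd (462). In TAM-NIC Ctsd (2980.4) led, ahead of Ctsb (2109) and Ctss (1954), and in naive macrophages Ctsd (3431) stood ahead of Ctsb (1572) and Ctss (696). Within TAM-NIC the libraries spread over wider ranges than these gaps, but Ctsd led in each, with 3661 and 2300 CPM per kilobase. Ctsb (2805 and 1414) and Ctss (3004 and 903) changed places between them. The order was not tested.

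The make-up of the family showed the same contrast without reference to the library total. Ctsd took 8.93% and 6.61% of the cathepsin counts in TAM-IC, 21.6% and 26.9% in TAM-NIC and 35.2% and 34.9% in naive macrophages. Ctss took 18.96% and 18.3% in TAM-IC, 10.2% and 6.11% in TAM-NIC and 4.07% and 4.19% in naive macrophages. The ranges of the 3 groups did not overlap for either gene, and the 2 genes ran in opposite order. Shares of 1 total are tied, so a lower share of Ctsd by itself raises that of Ctss. By CPM, Ctss had means of 2602 in TAM-IC and 2653 in TAM-NIC. Counts of Ctss per count of Ctsd were 2.12 and 2.77 in TAM-IC, 0.474 and 0.227 in TAM-NIC and 0.116 and 0.120 in naive macrophages. Ctsb, the most abundant by counts, held 33.4% and 46.5% in TAM-IC, 42.6% in both libraries of TAM-NIC, and 42.5% and 39.5% in naive macrophages. With 2 libraries against 2, an exact two-sided permutation test cannot go below p = 0.333, so these shares and ratios are given as values.

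**Figure D2:**
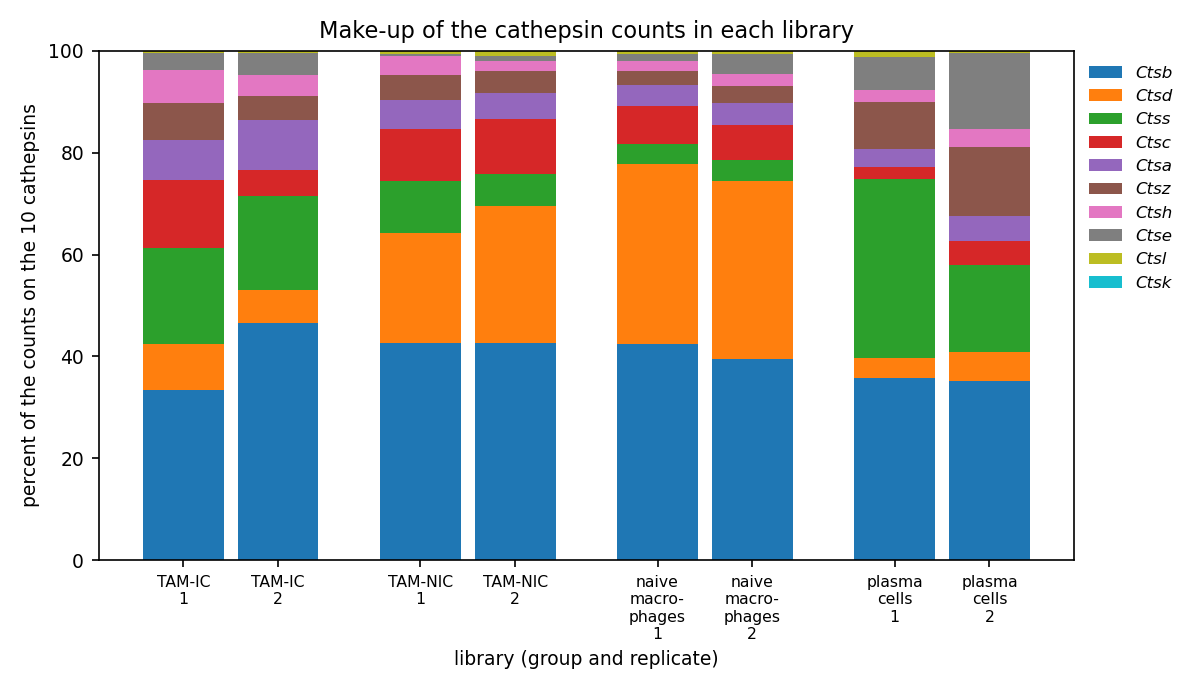
Percent of the counts on the 10 cathepsins that each gene took, 1 stacked bar per library, grouped as TAM-IC, TAM-NIC, naive macrophages and plasma cells. The share of Ctsd (orange) was 6.61% to 8.93% in TAM-IC and 34.9% to 35.2% in naive macrophages, and that of Ctss (green) ran the other way.

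Tests between groups were run across all genes with edgeR's quasi-likelihood test and Benjamini-Hochberg adjustment, and a gene was called at an adjusted p under 0.05. None of the 10 cathepsins was called in any of the 3 comparisons. The background was as low, with 0% of all 15522 genes called for TAM-IC over TAM-NIC, 0.219% for TAM-IC over naive macrophages and 0% for TAM-NIC over naive macrophages. At an unadjusted p under 0.05, 3 of 10 cathepsins passed for TAM-IC over TAM-NIC (Ctsd, Ctse and Ctsl), beside 17.1% of all genes. For TAM-IC over naive macrophages 2 passed (Ctsd and Ctsl), beside 14.6%, and for TAM-NIC over naive macrophages 2 passed (Ctse and Ctss), beside 15.2%. DESeq2, run as an alternative on the same counts, called 3 cathepsins in the first comparison (1 higher beside 2.8% of genes, 2 lower beside 7.1%, 9.9% in either direction). It called 1 lower and 0 higher in TAM-IC against naive macrophages (4.75% of genes lower, 2.91% higher, 7.66% in either direction). It called 1 lower and 0 higher in TAM-NIC against naive macrophages (3.28% lower, 4.31% higher, 7.59% in either direction). The 3 comparisons share libraries pairwise, so they do not count as separate evidence.

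Counted by libraries that did not overlap, 1 cathepsin lay higher and 4 lower in TAM-IC than in TAM-NIC, beside 24.4% and 22.3% of all genes. In TAM-IC against naive macrophages 2 lay higher and 3 lower, beside 23% and 36.7%. In TAM-NIC against naive macrophages 4 lay higher and 1 lower, beside 16.6% and 28.9%. The median log2 fold change of the 10 was -0.97 for TAM-IC over TAM-NIC, -0.06 for TAM-IC over naive macrophages and 0.97 for TAM-NIC over naive macrophages, where all tested genes had medians of -0.00198, 0.00399 and 0.0586. The first and the last of these medians rested on TAM-NIC replicate 1. Without that library they were -0.0712 and -0.00111.

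**Figure D3:**
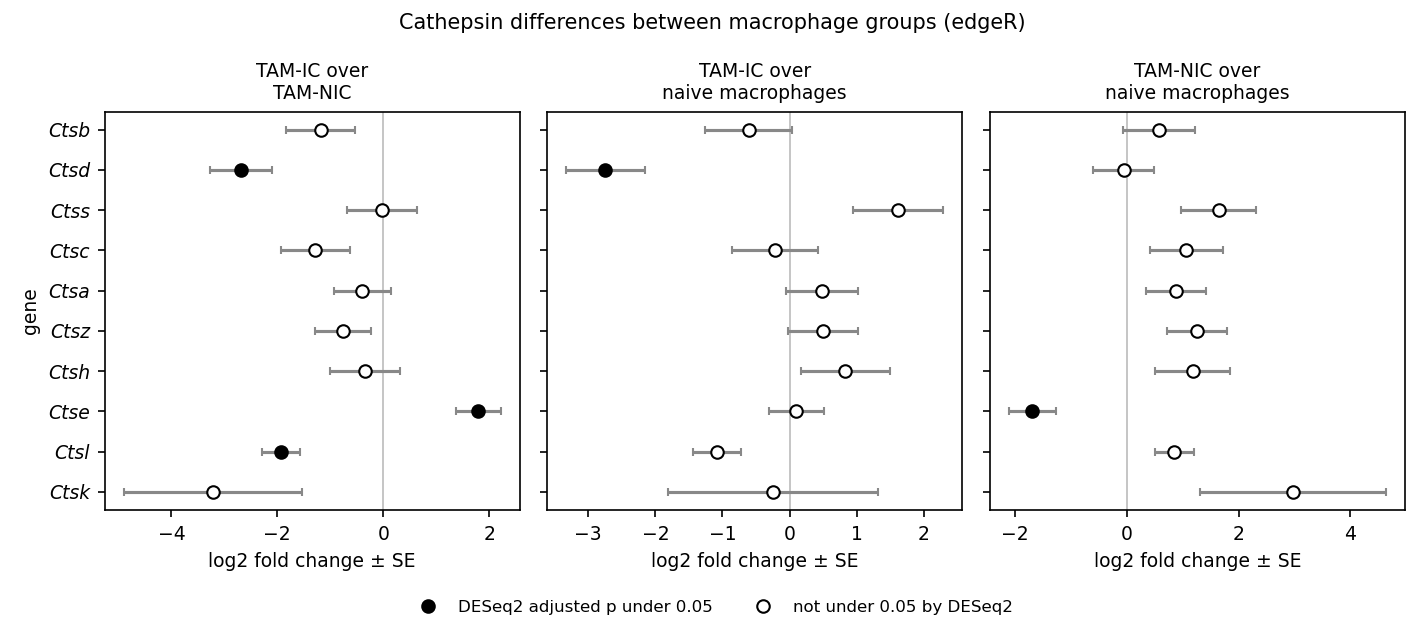
Log2 fold change of each cathepsin from edgeR with its standard error (bars), 1 panel per comparison, with genes in the order of mean CPM from the top. Filled points mark genes that DESeq2 called at an adjusted p under 0.05 (Ctsd, Ctse and Ctsl on the left, Ctsd in the middle, Ctse on the right). None was called by edgeR under its main settings.

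Ctsd encodes cathepsin D, an aspartic endopeptidase that degrades much of the protein delivered to lysosomes, and among the 10 it had the largest log2 fold change, by size, for TAM-IC over naive macrophages. It had 1254 and 916 CPM in TAM-IC, 8607 and 5407 CPM in TAM-NIC and 10336 and 5797 CPM in naive macrophages. The means were 1085 ± 239 CPM, 7007 ± 2263 CPM and 8066 ± 3209 CPM (SD, n = 2 each). Both TAM-IC libraries were far below the other 4, whose values overlapped between groups. The log2 fold change was -2.69 ± 0.58 (SE) for TAM-IC over TAM-NIC, with an edgeR adjusted p of 0.166 and a DESeq2 adjusted p of 5.28e-07. For TAM-IC over naive macrophages it was -2.74 ± 0.59, with adjusted p of 0.156 by edgeR and 1.49e-07 by DESeq2. TAM-NIC and naive macrophages differed by -0.06 ± 0.55 (edgeR adjusted p = 0.976). Leaving out a library kept both contact differences between -3.10 and -2.25. Without TAM-IC replicate 2, the library with Y-linked transcripts, they were -2.50 and -2.58. Without the immunoglobulin-rich TAM-NIC replicate 2, the difference from TAM-NIC was -3.03 (edgeR adjusted p = 0.0988). edgeR called the difference from naive macrophages when only those 2 groups were fitted (adjusted p = 0.0405). With no filter on low counts it called the differences from naive macrophages and from TAM-NIC (adjusted p of 0.000665 and 0.000836). The other edgeR settings with all 6 libraries called neither, with an adjusted p against naive macrophages of up to 0.239 (bias-adjusted quasi-dispersions).

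Ctsl encodes cathepsin L, a cysteine endopeptidase of lysosomes and secretions. It had 56.5 and 52.3 CPM in TAM-IC, 221 and 197 CPM in TAM-NIC and 168 and 87.9 CPM in naive macrophages. The 3 groups did not overlap, with TAM-IC lowest and TAM-NIC highest. The log2 fold change was -1.93 ± 0.36 (SE) for TAM-IC over TAM-NIC (adjusted p of 0.146 by edgeR and 0.00018 by DESeq2). It was -1.08 ± 0.36 for TAM-IC over naive macrophages (0.28 by edgeR, 0.081 by DESeq2) and 0.85 ± 0.35 for TAM-NIC over naive macrophages (0.336 by edgeR). Leaving out each library in turn kept the first of these between -2.06 and -1.79. With no filter on low counts edgeR called that difference (adjusted p = 0.00017). Without naive replicate 1 the differences from naive macrophages were -0.52 and 1.39, and without naive replicate 2 they were -1.47 and 0.44.

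Several markers of resident marrow macrophages were also lower in TAM-IC than in the other macrophages. Vcam1, an adhesion molecule of such macrophages, had 259.7 and 153 CPM in TAM-IC, 5063 and 5805 CPM in TAM-NIC and 8636 and 4335 CPM in naive macrophages. Mertk, a receptor for dying cells, had 42.7 and 15.6 CPM in TAM-IC, 446 and 419 CPM in TAM-NIC and 682 and 340.2 CPM in naive macrophages. Of the 12 macrophage markers, 8 lay lower without overlap in TAM-IC than in TAM-NIC and 1 higher (22.3% and 24.4% of all genes). Against naive macrophages 8 lay lower and 2 higher (36.7% and 23%), and edgeR called Cd5l (adjusted p = 0.0425) and Mrc1 (0.0442) lower, beside 0.187% of all genes. Between TAM-NIC and naive macrophages the orders parted, with Cd5l at 213 and 200.4 CPM in TAM-NIC and 1435 and 614 CPM in naive macrophages, whereas Ctsl lay higher in TAM-NIC. The sum of the 12 overlapped between groups, at 21514 and 26234 CPM in TAM-IC, 29942 and 17834 CPM in TAM-NIC and 33633 and 26143 CPM in naive macrophages. Most of that sum in TAM-IC was Lyz2, which ran against the 8 lower markers. Lyz2 had 15163 and 19978 CPM in TAM-IC, 6006 and 4187 CPM in TAM-NIC and 9423 and 13761 CPM in naive macrophages. The overlap of the sums therefore does not show a like level of the other markers. Per count of Adgre1, a ratio chosen after the values were seen, Ctsd stood at 2.42 and 1.67 counts in TAM-IC, 7.04 and 9.01 in TAM-NIC and 9.12 and 9.87 in naive macrophages. Ctsl stood at 0.109 and 0.0951 counts per count of Adgre1 in TAM-IC, 0.181 and 0.328 in TAM-NIC and 0.148 and 0.150 in naive macrophages. Scaled this way, both genes stayed lower in TAM-IC in every library, and the naive libraries lay close together. That outcome depends on the marker chosen. Vcam1 itself had log2 fold changes of -4.71 for TAM-IC over TAM-NIC and -4.83 for TAM-IC over naive macrophages. Those of Ctsd were -2.69 and -2.74, so per count of Vcam1 both Ctsd and Ctsl would be higher in TAM-IC. Of the 12 markers, 10 had negative and 2 positive log2 fold changes in each of these comparisons. The part of macrophage make-up in these differences was not tested.

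**Figure D4:**
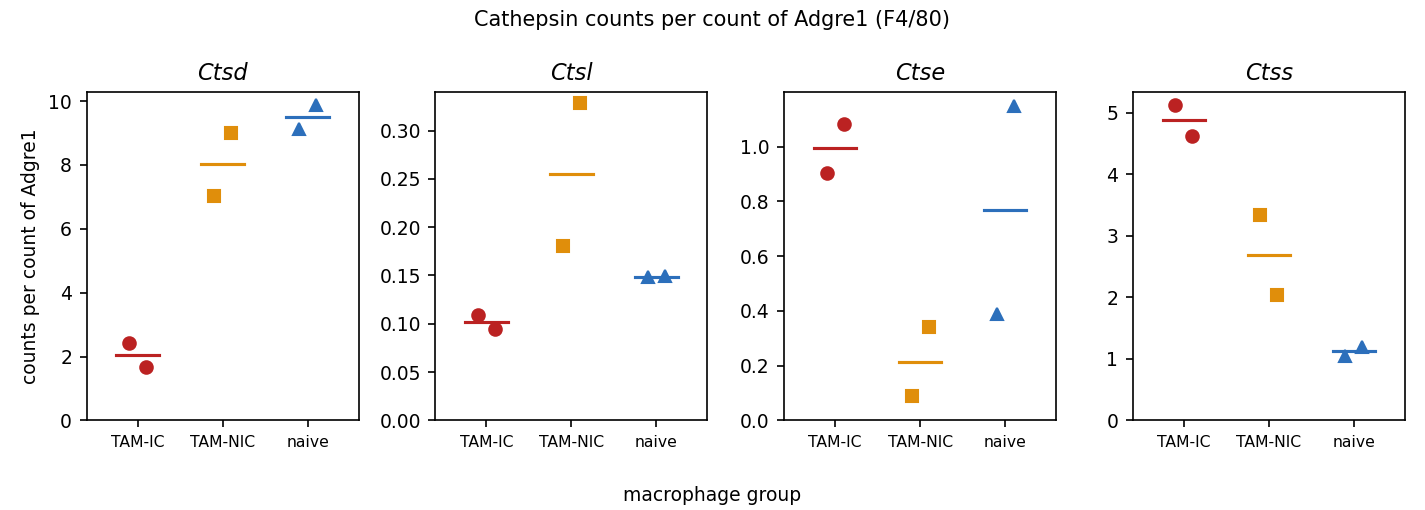
Counts of Ctsd, Ctsl, Ctse and Ctss per count of Adgre1 in each macrophage library (symbols) with the group mean (line), linear axes from 0. Ctsd and Ctsl were lowest in TAM-IC, Ctse was lowest in TAM-NIC and Ctss was highest in TAM-IC and lowest in naive macrophages.

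For Ctsd, the member that differed most between TAM-IC and naive macrophages, the 250 bases before the start of its RefSeq entry are shown, from the RefSeq promoter table of build GRCm38.p6, with CACGTG in capitals. CACGTG is the core of the E-box, reads the same on both strands, and is bound by MiT/TFE factors, which are known to drive lysosomal genes. The sequence is chr7:142387828-142388077 on the minus strand, and 211 of its bases lie inside the gene as GENCODE M21 draws it, since the longest transcript there starts further upstream.
Ctsd: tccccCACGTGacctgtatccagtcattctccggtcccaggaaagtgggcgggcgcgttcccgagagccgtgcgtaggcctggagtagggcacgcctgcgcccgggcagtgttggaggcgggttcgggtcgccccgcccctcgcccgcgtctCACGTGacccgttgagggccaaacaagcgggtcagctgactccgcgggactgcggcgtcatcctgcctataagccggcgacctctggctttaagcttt
CACGTG began 245 and 98 bases before the RefSeq start of Ctsd. The match at 98 bases lay within the longer palindrome TCACGTGA, which began 99 bases before that start. Of the 32851 promoter entries searched, 6.02% held CACGTG and 0.785% held TCACGTGA in the same window. Of the 10 cathepsins 7 had a promoter entry. The windows of Ctsl and of the second entry of Ctsa also held CACGTG, and that of Ctsa held TCACGTGA too, 13 bases before its start. They are not shown, and all 250 bases of each lay inside the GENCODE gene. The Ctsd match at 98 bases also lay inside its GENCODE gene, so this does not set Ctsd apart. The motifs were chosen after the sequences were seen, and a match is not evidence of binding.

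Ctse encodes cathepsin E, an aspartic protease of endosomes. It had 469 and 596 CPM in TAM-IC, 110.4 and 204 CPM in TAM-NIC and 439 and 674 CPM in naive macrophages. TAM-NIC lay below the other 4 libraries, and TAM-IC and naive macrophages overlapped. The log2 fold change was 1.79 ± 0.43 (SE) for TAM-IC over TAM-NIC (adjusted p of 0.182 by edgeR and 0.00221 by DESeq2). It was -1.69 ± 0.42 for TAM-NIC over naive macrophages (0.227 by edgeR, 0.00437 by DESeq2) and 0.10 ± 0.41 for TAM-IC over naive macrophages (0.928 by edgeR). Without TAM-NIC replicate 2 the first 2 differences were 2.24 and -2.15, and without replicate 1 they were 1.45 and -1.36. With no filter on low counts edgeR called both (adjusted p of 0.0026 and 0.00555). The summed neutrophil and eosinophil markers were also lowest in TAM-NIC. The 8 eosinophil markers summed to 911 and 1443 CPM in TAM-IC, 238 and 636 CPM in TAM-NIC and 1725 and 2275 CPM in naive macrophages, beside the neutrophil sums given above. Single eosinophil markers differed in order. Of the 8, 5 lay higher and 1 lower in TAM-IC than in TAM-NIC without overlap (24.4% and 22.3% of all genes). Ccr3, a chemokine receptor, had 14.4 and 21.7 CPM in TAM-IC, 169 and 488 CPM in TAM-NIC and 1083 and 453 CPM in naive macrophages, and made up most of the sum in both TAM-NIC libraries. The part of these markers' cells in the level of Ctse was not tested. Among the 8880 genes with a mean log2 CPM of at least 3, the pattern most like that of Ctse over the 6 libraries was that of Pglyrp1, with a Pearson r of 0.995, given as a description because the best of many genes is bound to be high over so few libraries.

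Ctss encodes cathepsin S, the cysteine endopeptidase that trims the invariant chain so that peptides can load onto MHC class II. It had 2665 and 2538 CPM in TAM-IC, 4079.8 and 1227 CPM in TAM-NIC and 1195 and 696 CPM in naive macrophages. Both TAM groups lay above the naive libraries, although TAM-NIC replicate 2 exceeded the higher naive library by little. The log2 fold change was 1.62 ± 0.67 (SE) for TAM-IC over naive macrophages (adjusted p of 0.347 by edgeR and 0.104 by DESeq2). For TAM-NIC over naive macrophages it was 1.64 ± 0.67 (0.329 by edgeR, 0.0863 by DESeq2), and 0.44 without TAM-NIC replicate 1. The TAM groups differed from each other by -0.03 ± 0.66 (edgeR adjusted p = 0.988). Per count of Adgre1, Ctss stood at 5.13 and 4.62 counts in TAM-IC, 3.34 and 2.05 in TAM-NIC and 1.05 and 1.18 in naive macrophages. Its partner Cd74, the invariant chain itself, had 14316 and 4239 CPM in TAM-IC, 15747 and 4042 CPM in TAM-NIC and 3348 and 2064 CPM in naive macrophages, so its TAM libraries also lay above the naive ones. The log2 fold changes of Cd74 were 1.92 ± 0.92 (SE) for TAM-IC over naive macrophages (edgeR adjusted p = 0.394) and 2.03 ± 0.92 for TAM-NIC over naive macrophages (edgeR adjusted p = 0.369).

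The Ctss promoter is shown because it was the one among the cathepsin promoters at hand to hold a pair of GAAA with any 2 bases between them, a repeat of the kind bound by interferon regulatory factors, here in capitals. It is chr3:95526536-95526785 on the plus strand, GRCm38.p6 from RefSeq.
Ctss: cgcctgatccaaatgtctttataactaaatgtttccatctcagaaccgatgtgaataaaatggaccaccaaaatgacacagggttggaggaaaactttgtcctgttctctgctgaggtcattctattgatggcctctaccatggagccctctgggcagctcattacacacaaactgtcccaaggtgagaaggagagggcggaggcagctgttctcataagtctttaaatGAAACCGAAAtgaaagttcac
The match began 21 bases before the start. This repeat, or its complement TTTC with the same spacing, occurred in 2.98% of the 32851 promoter entries.

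Ctsk encodes cathepsin K, the osteoclast collagenase, and was the scarcest member and the one that varied most. It had 9 and 219 counts (0.202 and 5.20 CPM) in TAM-IC, 1975 and 98 counts (47.8 and 3.16 CPM) in TAM-NIC and 124 and 135 counts (2.65 and 4.67 CPM) in naive macrophages. One library, TAM-NIC replicate 1, stood far above the rest, and one, TAM-IC replicate 1, far below. The log2 fold changes were -3.22 ± 1.69 (SE) for TAM-IC over TAM-NIC, -0.25 ± 1.57 for TAM-IC over naive macrophages and 2.97 ± 1.67 for TAM-NIC over naive macrophages, with edgeR adjusted p of 0.383, 0.954 and 0.459. Without TAM-NIC replicate 1 the first was -0.14 and the last -0.12, so both rested on that library. With no filter on low counts edgeR called these 2 differences (adjusted p of 0.00061 and 0.00203), with values of -3.25 and 2.98. Without TAM-IC replicate 2 the first was -7.00 and the second -4.03. Of the 7 osteoclast markers, Calcr was at 0 in all 6 macrophage libraries. Acp5, tartrate-resistant acid phosphatase, was highest in the same library as Ctsk, with 459 and 166 CPM in TAM-IC, 1168 and 217 CPM in TAM-NIC and 176 and 111 CPM in naive macrophages. Atp6v0d2, a proton pump subunit, had 0.584 and 1.95 CPM in TAM-IC, 17.4 and 2.19 CPM in TAM-NIC and 4.03 and 4.19 CPM in naive macrophages. Ocstamp, a protein of osteoclast fusion, was highest instead in TAM-IC replicate 1, where Ctsk was lowest, with 28.3 and 9.33 CPM in TAM-IC, 14.7 and 1.61 CPM in TAM-NIC and 1.13 and 0.242 CPM in naive macrophages. Stromal and osteoblast markers, 7 in number, summed to 19.4 and 8.83 CPM in TAM-IC, 187 and 130.3 CPM in TAM-NIC and 9.30 and 7.82 CPM in naive macrophages. In TAM-NIC Sparc alone had 180.9 and 61.2 CPM, nearly all of the sum in replicate 1. Cxcl12 (3.29 and 48.4 CPM), Col1a1 (0.580 and 14.5 CPM) and Col1a2 (1.93 and 6.22 CPM) were higher in TAM-NIC replicate 2, where Ctsk was low. Bglap, Lepr and Pdgfra had at most 0.556 CPM in TAM-NIC. The osteoclast list as a whole summed to 1934 and 1514 CPM in TAM-IC, 1400.1 and 1579.9 CPM in TAM-NIC and 3258 and 5321 CPM in naive macrophages, most of it, except in TAM-NIC replicate 1, Mmp9, which neutrophils also express. The part of such cells in the level of Ctsk was not tested.

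Ctsb encodes cathepsin B, a cysteine protease that cuts both within chains and dipeptides from their ends. It had 4698 and 6448 CPM in TAM-IC, 16972 and 8557 CPM in TAM-NIC and 12468 and 6559.8 CPM in naive macrophages. Both TAM-IC libraries lay below the other 4, the lower naive library closely so. The log2 fold change was -1.18 ± 0.66 (SE) for TAM-IC over TAM-NIC (edgeR adjusted p = 0.41), -0.61 ± 0.65 for TAM-IC over naive macrophages (0.687) and 0.57 ± 0.65 for TAM-NIC over naive macrophages (0.738). Without TAM-NIC replicate 1 the first was -0.55 and the last -0.092, and without naive replicate 1 the second was -0.060. Per count of Adgre1 the range of TAM-IC enclosed the naive libraries and TAM-NIC lay above both, at 9.05 and 11.7 counts in TAM-IC, 13.9 and 14.3 in TAM-NIC and 11.0 and 11.2 in naive macrophages.

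Ctsc, Ctsh and Ctsz are exopeptidases, which remove residues from chain ends. Ctsc encodes cathepsin C, or dipeptidyl peptidase I, which activates the serine proteases of granules. It had 1861 and 715 CPM in TAM-IC, 4054 and 2192 CPM in TAM-NIC and 2169 and 1139.6 CPM in naive macrophages. TAM-NIC lay above TAM-IC and, by a small gap, above naive macrophages, with log2 fold changes of -1.28 ± 0.65 (SE) for TAM-IC over TAM-NIC (edgeR adjusted p = 0.366) and 1.06 ± 0.65 for TAM-NIC over naive macrophages (0.496). Without TAM-NIC replicate 1 these were -0.72 and 0.47, and without TAM-IC replicate 2 the first was -0.77. Ctsh encodes cathepsin H, an aminopeptidase, and had 908 and 570.4 CPM in TAM-IC, 1481 and 391 CPM in TAM-NIC and 532 and 392 CPM in naive macrophages. The 2 libraries of TAM-NIC were its highest and its lowest. Ctsh differed by 0.83 ± 0.66 for TAM-IC over naive macrophages (edgeR adjusted p = 0.585), without overlap. Ctsz encodes cathepsin Z, a carboxypeptidase also called cathepsin X, and had 1039.9 and 672 CPM in TAM-IC, 1998 and 889 CPM in TAM-NIC and 813 and 533 CPM in naive macrophages. Only the TAM-NIC libraries lay wholly above the naive ones, with a log2 fold change of 1.25 ± 0.53 (edgeR adjusted p = 0.342) that was 0.47 without TAM-NIC replicate 1.

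Ctsa encodes cathepsin A, also called protective protein, a carboxypeptidase that holds beta-galactosidase and neuraminidase together in lysosomes. It had 1102 and 1348 CPM in TAM-IC, 2246 and 998 CPM in TAM-NIC and 1230.3 and 729 CPM in naive macrophages. All 3 groups overlapped, and its largest log2 fold change was 0.88 ± 0.54 (SE), for TAM-NIC over naive macrophages (edgeR adjusted p = 0.501), and 0.090 without TAM-NIC replicate 1. Its partner Glb1, beta-galactosidase, had 62.7 and 44.1 CPM in TAM-IC, 123 and 112 CPM in TAM-NIC and 138 and 103 CPM in naive macrophages, without overlap of TAM-IC with the others. Glb1 differed by -1.13 ± 0.28 for TAM-IC over TAM-NIC (adjusted p of 0.185 by edgeR and 0.0152 by DESeq2) and by -1.02 ± 0.28 for TAM-IC over naive macrophages (0.223 by edgeR, 0.0337 by DESeq2). The comparisons of Ctsa, Ctsc, Ctsh and Ctsz not given above had edgeR adjusted p of 0.464 to 0.893.

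For 7 of the 10 cathepsins the GENCODE M21 annotation places another gene over the locus. Where both genes were counted, some reads could have gone to either or to neither. Pltp, on the opposite strand of Ctsa with 1515 shared bases, had 94.3 to 831 CPM in the macrophage libraries. Gm49369 shares 6757 bases with Ctsd on the same strand, but it had no entry among the macrophage counts. Neither had Gm47123 and Gm49230, the genes over Ctsl. The kit does not mark strand, so reads of opposite genes cannot be told apart where they overlap. Ctse, Ctsh and Ctsk have no such neighbour.

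Other cathepsin genes, 13 in number, were mostly silent or scarce. Of these, 8 were at 0 counts in all 6 macrophage libraries (Cts3, Cts6, Cts7, Ctsj, Ctsm, Ctsq, Ctsr and Ctsll3), and 4 were tested (Ctsf, Ctsg, Ctso and Ctsw). Ctsf, which encodes the cysteine protease cathepsin F, fell in TAM-IC against naive macrophages, and edgeR called no other cathepsin gene in any comparison. It had 4.83 and 3.96 CPM in TAM-IC, 36.8 and 32.9 CPM in TAM-NIC and 94.6 and 52.7 CPM in naive macrophages. The 3 groups did not overlap. The log2 fold change of Ctsf was -3.91 ± 0.37 (SE) for TAM-IC over naive macrophages (edgeR adjusted p = 0.0425), in a comparison where edgeR called 0.187% of genes lower. It was -2.97 ± 0.36 for TAM-IC over TAM-NIC (adjusted p of 0.0772 by edgeR and 5.72e-10 by DESeq2) and -0.94 ± 0.33 for TAM-NIC over naive macrophages (edgeR adjusted p = 0.282). The call for Ctsf was lost with limma-voom (adjusted p = 0.107) and without any 1 of the TAM-IC or naive libraries (adjusted p of 0.0700 to 0.422), with the difference between -4.27 and -3.42. Ctso, cathepsin O, had 83.7 and 80.9 CPM in TAM-IC, 146 and 168 CPM in TAM-NIC and 104 and 67.8 CPM in naive macrophages, and differed by -0.91 ± 0.28 for TAM-IC over TAM-NIC (edgeR adjusted p = 0.213). Ctsg, the neutrophil serine protease cathepsin G, had 91.6 and 45.6 CPM in TAM-IC, 56.2 and 38.1 CPM in TAM-NIC and 97.3 and 283 CPM in naive macrophages. DESeq2 called it lower in TAM-NIC than in naive macrophages (adjusted p = 0.032), while edgeR did not (0.252).

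Of 20 listed cathepsin inhibitors 17 were in the macrophage table and 13 were tested. edgeR called none of them in any comparison, and at an unadjusted p under 0.05 2 passed in each, near the share of all genes (17.1%, 14.6% and 15.2%). DESeq2 called 1 higher and 1 lower for TAM-IC over TAM-NIC (2.8% and 7.1% of all genes), 1 lower for TAM-IC over naive macrophages (4.75%) and 1 lower for TAM-NIC over naive macrophages (3.28%). Cst3, or cystatin C, a secreted inhibitor of cysteine cathepsins, had 889 and 1717 CPM in TAM-IC, 809 and 258 CPM in TAM-NIC and 501 and 341 CPM in naive macrophages. TAM-IC lay above the other 4 libraries, and the log2 fold change over naive macrophages was 1.80 ± 0.67 (SE, edgeR adjusted p = 0.319). Serpinb1a, an inhibitor of neutrophil serine proteases including cathepsin G, had 481 and 272 CPM in TAM-IC, 123 and 153 CPM in TAM-NIC and 352 and 571 CPM in naive macrophages. Its order was that of Ctse, with 1.46 ± 0.40 for TAM-IC over TAM-NIC (adjusted p of 0.2 by edgeR and 0.0153 by DESeq2). Serpinb6a, a serpin of the cytosol, had 42.9 and 58.5 CPM in TAM-IC, 151 and 133 CPM in TAM-NIC and 269 and 153 CPM in naive macrophages. Its log2 fold change for TAM-IC over naive macrophages was -1.89 ± 0.37 (adjusted p of 0.132 by edgeR and 0.000251 by DESeq2). The median log2 fold change of the inhibitors tested was 1.30 for TAM-IC over TAM-NIC, 0.68 for TAM-IC over naive macrophages and 0.01 for TAM-NIC over naive macrophages. All tested genes had medians of -0.00198, 0.00399 and 0.0586. Of the 13, in the same order, 8, 10 and 7 were positive and 5, 3 and 6 negative. Scarce genes weighed as much as abundant ones. BC100530 had 34 and 36 counts in TAM-IC and 3 and 10 in TAM-NIC, and Stfa2 37 and 24 against 8 and 4.

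All 17 listed genes for processing, sorting and partnering of cathepsins were tested, and edgeR called none, with 4, 1 and 0 at an unadjusted p under 0.05 (TAM-IC over TAM-NIC, TAM-IC over naive macrophages, TAM-NIC over naive macrophages), where 17.1%, 14.6% and 15.2% of all genes passed. DESeq2 called only Glb1, lower in TAM-IC in both of its comparisons (7.1% and 4.75% of all genes). The medians were -0.27, -0.03 and 0.25 in the same order. Lgmn, which encodes legumain, a protease that matures several cathepsins, had 717 and 315 CPM in TAM-IC, 2657 and 1025 CPM in TAM-NIC and 1349 and 581 CPM in naive macrophages. Mitf and Tfeb encode factors that drive lysosomal genes and lay in different orders. Mitf had 5.03 and 4.18 CPM in TAM-IC, 13.8 and 12.05 CPM in TAM-NIC and 9.79 and 4.29 CPM in naive macrophages. Tfeb had 156 and 227 CPM in TAM-IC, 136 and 74.8 CPM in TAM-NIC and 132 and 108 CPM in naive macrophages. Neither was called by edgeR. Mitf between the TAM groups had an adjusted p of 0.23 (unadjusted p = 0.0241), and Tfeb between TAM-IC and naive macrophages an adjusted p of 0.389.

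Granule serine proteases, the class of enzyme that cathepsin C activates, were listed as 8 genes, of which 7 were tested, Ctsg among them. edgeR called none, and at an unadjusted p under 0.05 2, 0 and 4 passed in the same order of comparisons, beside 17.1%, 14.6% and 15.2% of all genes. DESeq2 called 2 higher for TAM-IC over TAM-NIC (Mcpt8 and Gzma, beside 2.8% of all genes) and 2 lower for TAM-NIC over naive macrophages (Mcpt8 and Ctsg, beside 3.28%). Mcpt8, a basophil protease, had 66.0 and 34.3 CPM in TAM-IC, 0.653 and 8.76 CPM in TAM-NIC and 129 and 222 CPM in naive macrophages. Elane, neutrophil elastase, had 608 and 238 CPM in TAM-IC, 464 and 195 CPM in TAM-NIC and 356 and 1200.03 CPM in naive macrophages. The medians were 0.54, -0.74 and -1.31. Ctsc did not share this order, being highest in TAM-NIC.

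In the plasma cell libraries cathepsins were scarcer. The 10 summed to 2337 CPM in plasma cell replicate 1 and 1351 CPM in replicate 2, below every macrophage library. Levels are set across 2 tables here, without a test, and 67.3% and 70.4% of the plasma cell counts lay on immunoglobulin genes, which lowers the CPM of all other genes. Ctsb led with 837 and 475 CPM, before Ctss with 820.4 and 231 CPM. Ctsz had 215 and 183 CPM and Ctse 151 and 199.5 CPM. Ctsd, second by counts in macrophages, had 90.6 and 76.2 CPM. Ctsa, Ctsc and Ctsh had between 49.1 and 85.1 CPM, Ctsl 27.5 and 7.25 CPM, and Ctsk 3 and 0 counts, where a count of 0 allows up to 0.0782 CPM. Ctse alone was higher in both plasma cell libraries than in a macrophage library, namely than the 110.4 CPM of TAM-NIC replicate 1. Among the cathepsin counts, Ctss held 35.1% and 17.1%, Ctsd 3.88% and 5.64%, and Ctse 6.47% and 14.8% in plasma cells. TAM-NIC replicate 2, with 9.13% immunoglobulin counts, had 5407 CPM of Ctsd and 204 CPM of Ctse, above plasma cell levels for both.

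Genes whose log2 CPM ran most alike over the 6 macrophage libraries were named once for each member by Pearson r. They were Galnt12 for Ctsd (0.997), Gaa for Ctsl (0.999), Tmbim4 for Ctss (0.998), Vac14 for Ctsb (0.981), Dpy19l4 for Ctsc (0.990), Ndufs8 for Ctsh (0.994), Epb41l2 for Ctsz (0.986), Ccnq for Ctsa (0.994) and Grpel2 for Ctsk (0.939). The number of genes at or above an r of 0.95 ranged from 0 for Ctsk to 163 for Ctsd. The libraries fall into groups, which all genes share, so these are descriptions only.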

How the data were processed

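The libraries, 6 of macrophages and 2 of plasma cells, were made from sorted mouse marrow cells with SMART-Seq v4, per the labels' protocols, a method that does not mark strand. The authors deposited whole-number read counts per gene, in 1 table for each cell kind. STAR, featureCounts, DESeq2 1.26, mm10 and GRCm38 are named in the submitters' processing notes. The annotation, the strand setting and the handling of multiply mapped reads were not given in the sources used here.

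Symbols came from GENCODE M21 (GRCm38), in which 47224 of 47643 macrophage identifiers were found. The rest held at most 0.117% of any library's total. The plasma cell table lists 52458 entries under symbols. Coordinates in that annotation count from 1. CPM use library totals. Where a library had 0 counts, 3 counts were taken as its limit (0.0640 to 0.104 CPM for macrophages), which covers counting error only.

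The main test was the quasi-likelihood test of edgeR 4.0.16 (R 4.3.3, legacy quasi-dispersions, TMM, filterByExpr with minimum count 10 and minimum total 15). All 6 macrophage libraries entered it with their group as the one term and 3 residual degrees of freedom. P-values were adjusted by Benjamini and Hochberg's method across 15522 genes, with 0.05 as the threshold. Log2 fold changes carry standard errors. Alternatives were DESeq2 1.42.0, limma-voom (limma 3.58.1), other scalings and filters, bias-adjusted quasi-dispersions, a block for the labels' mouse number, 2 groups alone, and each library left out. The code was tested on simulated counts.

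The members, gene lists and comparisons were chosen with earlier results of these data known. The text names all 10 cathepsins, from other lists up to 3 tested genes per comparison with the smallest p, and for each cathepsin the gene most like it by Pearson r of log2 CPM (prior count 2) among genes with a mean of 3 or more. Lgmn, Elane, Mertk, Adgre1, Pltp and the sex-linked genes fall outside that rule and were picked after their values were seen. Other steps used Python 3.11.15, numpy 2.4.6, pandas 2.3.3 and matplotlib 3.10.9.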

Additional observations from a re-analysis of the deposited data

How the results depend on the processing

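None of the 10 cathepsins was called by edgeR with TMM, by limma-voom, with RLE factors, library totals, immunoglobulin genes removed, a mean CPM of at least 5 or bias-adjusted quasi-dispersions. DESeq2 called 3, 1 and 1 (TAM-IC over TAM-NIC, TAM-IC over naive macrophages, TAM-NIC over naive macrophages), and no filter on low counts gave 4, 1 and 2. Fitting only the 2 groups compared called 1 for TAM-IC over naive macrophages, and leaving out libraries called 0 to 1 there and 0 in the other comparisons. Over all genes the counts were 0, 34 and 0 in the main fit and 1575, 1180 and 1246 by DESeq2. With no filter they were 1871, 1437 and 1548, and with bias-adjusted quasi-dispersions 22, 56 and 0. For TAM-IC over naive macrophages limma-voom called 0, RLE factors 22, library totals 18, immunoglobulin genes removed 20 and the 2 groups alone 664. Leaving out libraries gave 0 to 1510, 0 to 534 and 0 to 477 genes. The cause of these differences was not tested. The median cathepsin log2 fold change ran from -1.45 to -0.0712, from -0.08 to 0.25 and from -0.00111 to 1.40 when libraries were left out, and of 30 member comparisons 19 kept their direction under all 16 alternatives.

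The other 11 reversed in some setting, and none was called in a setting where it reversed. One of them, Ctsk for TAM-NIC over naive macrophages, was called in its main direction with no filter on low counts (adjusted p = 0.00203). With a library left out, Ctsa ran from -0.91 to 0.36, Ctsh from -1.04 to 0.98, Ctss from -0.68 to 1.15 and Ctsz from -1.26 to 0.00238 for TAM-IC over TAM-NIC, as did Ctsw, which is not among the 10, from -1.74 to 0.46. For TAM-IC over naive macrophages Ctsc ran from -1.01 to 0.33, Ctse from -0.17 to 0.44 and Ctsk from -4.03 to 0.71. For TAM-NIC over naive macrophages Ctsb ran from -0.092 to 1.11, Ctsd from -0.51 to 0.42, Ctsh from -0.17 to 1.84 and Ctsk from -0.12 to 3.89. Library totals gave -0.063 for Ctse in TAM-IC over naive macrophages, and limma-voom 0.27 for Ctss between the TAM groups. By CPM per kilobase the order of 5 members by mean level changed.

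The labels number the TAM libraries mouse 1 and mouse 2 in both groups. Deviations of like-numbered libraries correlated at 0.152, but the sex-linked counts differed between the libraries of mouse 2, so that number does not mark 1 animal. For mouse 1 those counts do not tell, and the numbers were not taken to pair the libraries. A replicate block called 0 cathepsins and 59, 168 and 1 genes. It gave replicate 2 of the TAM groups a term of its own and left both naive libraries without it. Under it, differences from naive macrophages therefore take the TAM groups at their replicate 1 level. Under the block Ctss between the TAM groups was 0.23, Ctsc and Ctse in TAM-IC over naive macrophages were 0.20 and -0.22, and Ctsd in TAM-NIC over naive macrophages was 0.18.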
